A study of Mus musculus with 2 samples.

Results

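The 4 genes of the nuclear factor I (NFI) family are Nfia, Nfib, Nfic and Nfix. With 2 further transcription factor genes of the gliogenic switch, Sox9 and Zbtb20, they were followed in control and H2A.Z conditional knockout embryonic mouse forebrain. The set was fixed by gene name, with earlier results of these data known, and its members were found by symbol among the 19720 genes of the deposited table. RNA sequencing was done on telencephalic tissue, dissected as cerebral cortex, of C57BL/6 mice of 2 genotypes. The control carried floxed H2A.Z alleles (H2AZfl/fl, titled WT), and the other genotype was the H2A.Z conditional knockout (H2AZcKO), whose Cre driver the labels do not name. The titles give embryonic day 16 and the stage field embryonic day 12, so the age is uncertain. Although the design text speaks of triplicates, the table holds 1 count column per genotype. All differences are therefore between 1 control and 1 knockout library, there is no replicate check, and intervals below cover counting error only.

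Radial glia, the stem cells of the embryonic cortex, first make neurons and then switch to making astrocytes. Sox9, an HMG-box factor, and the NFI proteins, which bind DNA as dimers at the sequence TTGGC and its palindrome, act in this switch: Sox9 induces Nfia, and the pair then activate early astrocyte genes. Zbtb20, a zinc finger repressor of the BTB family, favours astrocyte production in the cortex and specifies hippocampal neurons. None of these genes is restricted to glial progenitors. NFI genes are also transcribed in newborn cortical neurons, so a whole-tissue level mixes several cell types, and fewer cells of a type and less RNA per cell cannot be told apart.

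The NFI genes are paralogs, and whether reads can be told apart between them bears on every value below. The 60 coding bases in which the longest annotated coding sequences were most alike lie near the 5′ end of each, within 1 exon that encodes part of the DNA-binding region, and are given here from the GENCODE M21 transcripts (GRCm38), with capitals at the 12 positions where any of the 4 differs.
Nfia (chr4:97783142-97783201, plus strand): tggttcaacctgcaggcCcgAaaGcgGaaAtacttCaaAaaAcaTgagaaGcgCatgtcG
Nfib (chr4:82498650-82498709, minus strand): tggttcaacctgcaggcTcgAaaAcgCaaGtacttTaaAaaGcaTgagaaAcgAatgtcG
Nfic (chr10:81420679-81420738, minus strand): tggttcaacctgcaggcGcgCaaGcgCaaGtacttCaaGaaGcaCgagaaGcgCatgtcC
Nfix (chr8:84772196-84772255, minus strand): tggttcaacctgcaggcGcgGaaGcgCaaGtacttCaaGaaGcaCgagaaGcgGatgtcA
Even here Nfib and Nfic matched Nfia at 52 of 60 bases and Nfix at 51. The longest coding run shared by any pair was 32 bases, between Nfic and Nfix: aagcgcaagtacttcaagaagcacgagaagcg. None of the 50-base windows in the annotated transcripts of one member occurred in another member, so exact matches of that length would separate the family. Matches with mismatches were not examined, and in the stretch above Nfic and Nfix are closer to each other than to Nfia. The labels do not state the read length. With genes outside the set, 0.358% of the windows of Nfic, 1.34% of Nfix and 0.371% of Zbtb20 were shared, and 0 of Nfia, Nfib and Sox9.

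All 6 genes had reads in both libraries, and none was as much as 1.5-fold apart. The 4 NFI genes were lower in the knockout library, by 8.03% (Nfib) to 22.1% (Nfic), Sox9 differed by less than its counting error, and Zbtb20 was 10.9% higher. Ratios were scaled by the trimmed mean of M values (TMM), and a gene counted as measured from 20 reads upwards, both libraries together. Of 14366 measured genes, 8.95% were at least 1.5-fold apart (3.52% higher and 5.43% lower), and of the 6 genes 0 were in either direction. A 95% interval that excluded a ratio of 1 is called beyond counting error. Such intervals were found for 21.8% of measured genes, 9.3% in the lower direction and 12.5% in the higher, against 5 of these 6 genes, 4 lower and 1 higher. The interval narrows with depth, and each of the 6 had at least 1000 reads over both libraries. Among the 4586 genes with that many, 32.1% were beyond counting error, 7.68% lower and 24.5% higher.

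Nfix, on chromosome 8 from 84699876 to 84800344, and Nfib, on chromosome 4 from 82290173 to 82705750, held most of the family's reads. For Nfix 10108 control reads and 8938 knockout reads were counted, or 1178 and 1002 TMM-scaled CPM (counts scaled to a common library size). This was a log2 ratio of knockout to control of -0.23 (interval -0.28 to -0.19). Nfib had 9559 and 9143 reads, or 1114 and 1025 CPM, a log2 ratio of -0.12 (-0.16 to -0.079). Both genes were lower in the knockout library beyond counting error. Nfix promotes the differentiation of progenitors and Nfib is needed for callosal and hippocampal glia, and both are known for wide expression in the developing cortex.

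Nfia, the member most closely tied to the start of gliogenesis, lies on chromosome 4 from 97772734 to 98118874. The control gave 2312 reads and the knockout 2032, or 269.5 and 227.8 CPM, with the log2 ratio at -0.24 (-0.33 to -0.16). Nfic, on chromosome 10 from 81396186 to 81431005 and better known for its part in tooth root formation, had 710 and 575 reads. Its levels of 82.8 and 64.5 CPM gave the lowest log2 ratio of the 6, -0.36 (-0.52 to -0.20). Nfic also had the fewest reads and so the widest interval, which overlaps those of Nfia and Nfix. Summed, the 4 NFI genes had 22689 control reads and 20688 knockout reads, and were 12.3% lower in the knockout (10.7% to 14.0%).

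Sox9, on chromosome 11 from 112782224 to 112787760, had 885 and 854 reads, 103.2 and 95.7 CPM. Its log2 ratio was -0.11 with an interval that includes 0 (-0.25 to 0.029), so a decrease of the size seen in Nfib is inside this interval. Zbtb20, on chromosome 16 from 42875881 to 43642602, had 2646 and 3052 reads, 308.5 and 342.1 CPM. It was the only 1 of the 6 that was higher in the knockout library, with a log2 ratio of 0.15 (0.074 to 0.23).

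**Figure D1:**
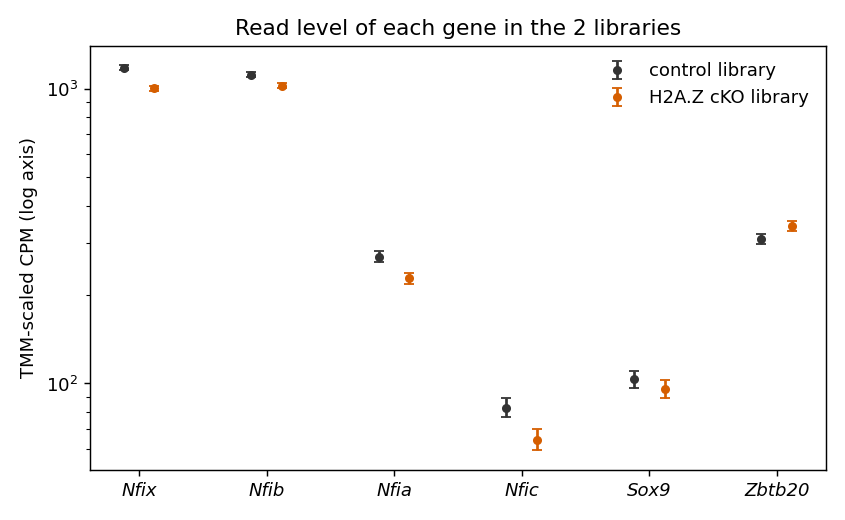
TMM-scaled CPM (log axis) of each gene in the control library (dark) and the H2A.Z conditional knockout library (orange). Bars are exact 95% Poisson intervals and cover counting error only. The knockout point is lower for the 4 NFI genes and higher for Zbtb20, and the bars of Sox9 overlap.

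Among genes of like depth, 3 of the NFI ratios lay near the lower end. Of the 4586 genes with at least 1000 reads, 20 (0.436%) had a lower ratio than Nfic, 82 (1.79%) than Nfia and 93 (2.03%) than Nfix. Nfib stood at percentile 8.48, Sox9 at 10.2 and Zbtb20 at 84.7. In these deeply read genes the central 90% of log2 ratios ran from -0.16 to 0.25, with a median of 0.037. Against all 14366 measured genes, whose thinly read members scatter widely, the positions were less far out: Nfic stood at percentile 10.6, Nfia at 16.7 and Nfix at 17.2. These percentiles describe the 2 libraries, and a common scaling of a library does not change them.

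**Figure D2:**
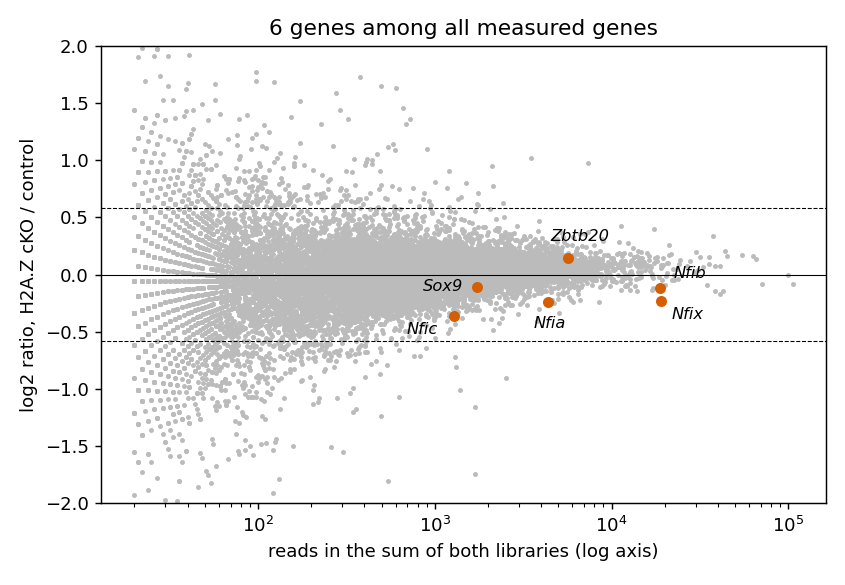
Log2 ratio of knockout to control against the reads of both libraries (log axis) for measured genes (grey) and the 6 genes (orange); ratios beyond 2 either way are not drawn. Dashed lines mark a 1.5-fold difference. Nfia, Nfic and Nfix lie at the lower edge of genes of like depth, between -0.23 and -0.36, and no orange point crosses a dashed line.

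The 6 genes did not move as 1 block. A difference between 2 genes within the same libraries does not depend on scaling, and it was beyond counting error in 9 of 15 pairs, with no adjustment for the number of pairs. Zbtb20 stood apart from each of the other 5. Its log2 ratio was higher than that of Sox9 by 0.26 (0.10 to 0.41), the smallest of these 5 gaps, and the gap between Nfic and Zbtb20 was -0.51 (-0.69 to -0.33). Within the family, Nfib stood apart from the other 3: Nfia minus Nfib was -0.12 (-0.22 to -0.026), Nfib minus Nfix 0.11 (0.055 to 0.17) and Nfib minus Nfic 0.24 (0.074 to 0.41). Differences among Nfia, Nfic and Nfix were inside counting error, as was that of Nfia and Nfix at -0.0088 (-0.10 to 0.087). Sox9 differed from Nfic, with Nfic minus Sox9 at -0.25 (-0.47 to -0.040), but its differences from Nfia, Nfib and Nfix had intervals that include 0.

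**Figure D3:**
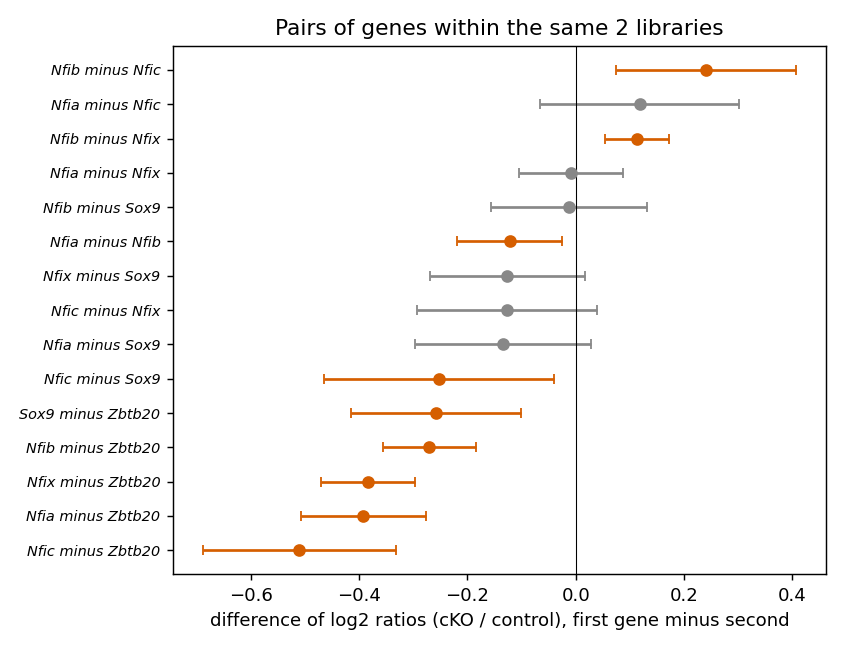
Difference between the log2 ratios of 2 genes, first minus second, for the 15 pairs; bars are exact conditional 95% intervals and cover counting error only. Orange pairs, 9 of 15, exclude 0. The 5 pairs with Zbtb20 are all orange and lie on the negative side, since Zbtb20 is the second gene in each.

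The makeup of the family shifted by about 2 percentage points. Nfib supplied 42.1% of NFI reads in the control library (Clopper-Pearson interval 41.5% to 42.8%) and 44.2% in the knockout library (43.5% to 44.9%). Nfix supplied 44.6% (43.9% to 45.2%) and 43.2% (42.5% to 43.9%). Nfia went from 10.2% to 9.82% and Nfic from 3.13% to 2.78%, with overlapping intervals. Nfix therefore had the most reads of the family in the control library. In the knockout library Nfib had 9143 reads and Nfix 8938, but the intervals of their shares overlap there. Per length, as given below, Nfix stood above Nfib in both libraries.

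Levels can be compared between genes only per length, here CPM per kb of all annotated exons. In the control library the order was Nfix at 160.3, Nfib at 74.5, Sox9 at 24.95, Nfia at 24.7, Nfic at 12.5 and Zbtb20 at 10.0. Sox9 and Nfia were not distinguishable by counting error in the control library (Poisson intervals 23.3 to 26.7 and 23.8 to 25.8). In the knockout library Nfix was again highest at 136.3, followed by Nfib at 68.5, Sox9 at 23.2 and Nfia at 20.9. The last places were exchanged there: Zbtb20 stood at 11.1 (10.7 to 11.5) and Nfic at 9.72 (8.94 to 10.6), intervals that do not overlap. The exon annotation of Nfic is from a GENCODE M21 model that ends at 81455635, while the counted model ends at 81431005. Its levels per kb may be too low for that reason, which the intervals do not cover. With the length of the longest coding transcript in place of all exons, Nfia at 28.3 stood above Sox9 at 24.95 in the control library, while Zbtb20 and Nfic kept both orders, at 11.5 against 13.3 in the control library and 12.7 against 10.3 in the knockout library. Zbtb20 has 30.7 kb of annotated exon sequence, and Sox9 has 4.13 kb. As a ratio, the change of length moved the control level most for Nfib, from 74.5 to 122.2. That of Nfix went from 160.3 to 215.2, a larger move in CPM per kb.

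Within 500 kb of the 6 genes there were from 2 measured neighbours around Sox9 to 38 around Nfic. At least 1.5-fold apart were 1 of 3 around Nfib, 2 higher and 3 lower of 38 around Nfic, and 1 of 37 around Nfix. Around Nfia, Sox9 and Zbtb20 there were 0. Of all measured genes 8.95% were as far apart. Of these neighbours, those at least 1.5-fold apart and beyond counting error were Frem1, Mrpl54 and Ankrd24. Frem1, a basement membrane gene 192.2 kb from Nfib, counted 115 and 42 reads (log2 ratio -1.50, interval -2.06 to -0.99). Near Nfic, the mitochondrial ribosomal gene Mrpl54 was at 0.68 (0.29 to 1.07) and Ankrd24 at -0.68 (-0.98 to -0.38). Gene models on the opposite strand overlap 3 of the NFI genes with 20 or more reads. E130114P18Rik, whose model covers the 5′ end of Nfia, had 312 and 268 reads and stood at -0.28 (-0.52 to -0.036). Gm11266, inside Nfib, had 310 and 275 reads and a ratio of -0.23 (-0.47 to 0.0096). Lyl1, inside the span of Nfix, had 20 and 15 reads. The labels do not give the strand setting. Reads in stretches shared with these genes cannot be assigned with certainty.

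RefSeq promoter windows (GRCm38.p6, 250 bases before to 50 after a start) were available for 4 of the 6 genes, and they show how common the NFI core TTGGC is. One Nfix start is shown, picked because the core, in capitals, occurs in its upstream part. Another Nfix start (chr8:84772876-84773125) also holds the core there, on the other strand. Each of these starts lies inside the counted gene. The windows of Nfia, Nfic and Zbtb20 held no core.
Nfix upstream (chr8:84775829-84776078, minus strand): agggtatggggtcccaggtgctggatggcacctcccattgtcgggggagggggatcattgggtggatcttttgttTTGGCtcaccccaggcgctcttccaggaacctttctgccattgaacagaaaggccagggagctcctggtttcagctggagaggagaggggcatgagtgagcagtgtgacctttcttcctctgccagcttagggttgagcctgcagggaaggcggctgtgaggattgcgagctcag
Of the 32851 windows used, which leave out a chromosome that holds none of these genes, 46.7% hold TTGGC on either strand. The full palindrome, the core and its reverse complement with 5 bases between, was found in 0.0365% of windows and in none of the 7 windows of these genes. A match is a description of letters, not of binding.

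Other genes of the gliogenic switch were read beside the 6 genes, whose median log2 ratio was -0.18. Reported targets of NFI or Sox9 had 8 of 10 members measured, with 0 at least 1.5-fold apart, 3 lower beyond counting error and 0 higher. Over all measured genes 8.95% were at least 1.5-fold apart, and 9.3% were lower and 12.5% higher beyond counting error. The median log2 ratio of the targets was -0.079, beside 0.0018 over all measured genes. The list was not split into activated and repressed targets, so its median and counts have no set direction. Mmd2, a target shared by Nfia and Sox9, had 607 and 532 reads and a ratio of -0.25 (-0.42 to -0.076). Fabp7, a fatty acid binding protein gene of radial glia, was at -0.21 (-0.29 to -0.13), and Slc1a3, the glial glutamate transporter gene, at -0.16 (-0.27 to -0.058). Fabp7 and Slc1a3 are also counted in the radial glia list below. Zcchc24, a further shared target, was at -0.10 (-0.36 to 0.15). Gfap, the late astrocyte target, had 9 and 5 reads and Insc 2 and 3, too few for a difference to be detectable at this depth.

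Factors that favour gliogenesis had 14 of 16 members measured, 1 of them at least 1.5-fold lower and 0 higher, and a median log2 ratio of -0.066. The lower 1 was Id3, an inhibitor of DNA binding induced by BMP signals, with 145 and 93 reads and a ratio of -0.69 (-1.09 to -0.31). Sox8, the closest relative of Sox9 on this list, went the other way, with 232 and 329 reads and a ratio of 0.45 (0.20 to 0.70). Hes5, a Notch target, was at -0.31 (-0.70 to 0.077) and Etv4, an FGF-induced factor, at -0.27 (-0.79 to 0.24), both inside counting error. Beyond counting error, 4 of the 14 were lower and 2 higher, beside 9.3% and 12.5% of measured genes.

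Factors that restrain gliogenesis had 11 of 12 members measured, 0 past the 1.5-fold line, and a median of 0.072. Of the 11, 5 were higher and 2 lower beyond counting error, beside 12.5% and 9.3% of measured genes. Scaled by library total 3 were higher, and scaled by radial glia reads 7 were, with 2 lower under both. Lin28b, an RNA-binding protein of early progenitors, had 79 and 114 reads and a ratio of 0.47 (0.046 to 0.91). Hmga1, a chromatin protein of early progenitors, was at 0.24 (0.032 to 0.44). The proneural factor gene Neurog2 at -0.25 (-0.36 to -0.15) and the dorsal selector gene Lhx2 at -0.22 (-0.29 to -0.15) were lower. Lin28a is not among the listed genes.

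Likeness was taken as the absolute difference of log2 ratios over the 2 libraries, among 78 list genes with at least 500 reads. On this measure the 2 genes nearest Nfia were Eomes, the intermediate progenitor factor, and Mmd2, each within 0.0039, and those nearest Nfix were Lhx2 and Eomes, within 0.012. Plagl1 was among the nearest to both Nfib and Sox9, with Gadd45g beside Nfib and Zcchc24 beside Sox9. Axin2 and Cdh5 were nearest Nfic, and Col11a1 was among the nearest to Zbtb20. With 2 libraries this says only that the ratios were close.

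Markers of the cell types that transcribe these genes give the setting of the small NFI difference. The radial glia list had 0 of 15 members 1.5-fold apart and a median of -0.082, with 5 lower and 2 higher beyond counting error. Dbi, a ligand of the benzodiazepine receptor, was lowest of the 5 at -0.27 (-0.38 to -0.16), and the stem cell factor gene Sox2 was the highest of the list at 0.30 (0.19 to 0.41). The astrocyte list had 11 of 15 measured, 1 at least 1.5-fold lower and a median of -0.15, with 5 lower and 0 higher beyond counting error. The 3 furthest were Clu at -0.71 (-0.93 to -0.50), which encodes clusterin, the lipid carrier gene Apoe at -0.55 (-0.75 to -0.34) and the gap junction gene Gja1 at -0.54 (-0.76 to -0.32). The 6 inside counting error ran from Mlc1 at -0.24 to Slc1a2 at 0.042, with Aldh1l1 at -0.050. The mature astrocyte markers Gfap, S100b, Aqp4 and Ntsr2 stood at 10 reads or fewer in each library. Intermediate progenitor genes had a median of -0.089 with 0 of 6 apart. Deep-layer neuron genes had a median of 0.0085 with 1 of 7 higher, and upper-layer genes 0.11 with 0 of 6 apart. Of the 11 hippocampal primordium and cortical hem genes, all measured, 4 were at least 1.5-fold lower and 0 higher, with a median of -0.34. The summed level of that list was 295.9 CPM in the control and 253.0 in the knockout, and Wnt8b, a hem-side Wnt ligand gene, was at -0.86 (-1.38 to -0.36).

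**Figure D4:**
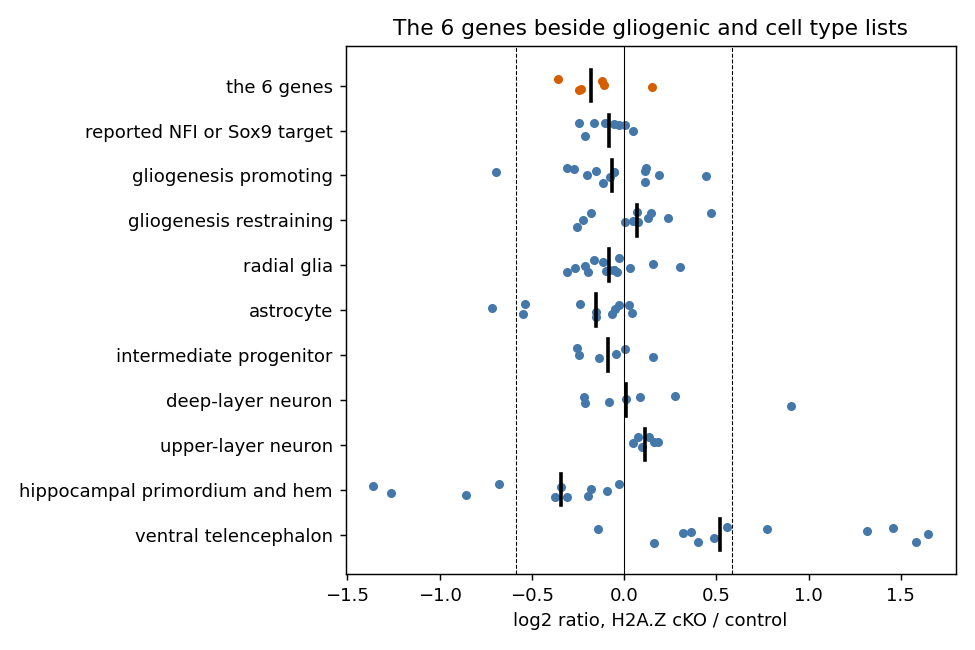
Log2 ratios of knockout to control of measured genes, 1 point a gene, for the 6 genes (orange) and 10 lists (blue); black bars are list medians, dashed lines a 1.5-fold difference, and vertical scatter has no meaning. The 6 genes have a median of -0.18, between that of the hippocampal primordium and hem list at -0.34 and that of the astrocyte list at -0.15.

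The dissected tissue differed between the libraries in other markers, and this touches each ratio above. Summed ventral telencephalic markers stood at 785.7 CPM in the control and 1134 in the knockout, where 5 of 12 genes were at least 1.5-fold higher and none lower, and diencephalic markers at 75.1 and 201.8, with 5 of 8 measured genes higher and 0 lower. Choroid plexus markers stood at 839.4 and 27.7 CPM, with 11 of 11 measured genes at least 1.5-fold lower, and markers of meninges and fibroblasts at 248.7 and 26.01, with 8 of 10 lower and 1 higher. Over all measured genes 3.52% were at least 1.5-fold higher and 5.43% lower. Of the defining markers, Shox2 (diencephalon) was at 0 reads in the control library and Calml4 (choroid plexus) and Slco1a4 (endothelium) at 0 in the knockout library. Oligodendrocyte lineage genes had 2 of 8 members higher and 1 lower by 1.5-fold, with a median of 0.37. Endothelial genes had a median of -0.21 and 1 of 7 at least 1.5-fold lower, the transporter gene Slco1a4, with 33 control reads. Microglia and macrophage genes had 1 of 5 measured genes lower, the mannose receptor gene Mrc1, and a median of -0.15 that was -1.16 at a minimum of 100 reads and -0.032 at a minimum of 1. Cartilage, where Sox9 is a master regulator, had 3 of 7 markers measured and 0 of these apart. The part of these differences in the ratios of the 6 genes was not tested. Set against the summed reads of the radial glia list in place of TMM, the 4 NFI genes were again lower but closer to level, from -0.065 (Nfib) to -0.30 (Nfic), and Zbtb20 was at 0.21.

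The label of the knockout was checked on its target. H2afz, which encodes H2A.Z.1, had 1152 control reads and 535 knockout reads, with the log2 ratio at -1.16 (-1.31 to -1.01). H2afz RNA was thus reduced in the knockout library, to 0.447 of the control level, and not absent. Its paralog H2afv was at 0.061 (-0.063 to 0.19). The control library held 8474545 reads in genes and the knockout library 9028523.

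In the authors' deposited table, which gives control over knockout, 0 of the 6 genes are marked significant, and each of the 318 genes so marked has at least a 2-fold difference. In the authors' deposited table the adjusted p-value is below 0.05 for 5 of the 6 genes, beside 7.42% of listed genes, and Sox9 has 0.227. In the authors' deposited table the log2 of control over knockout is 0.28 for Nfia, 0.16 for Nfib, 0.40 for Nfic, 0.27 for Nfix, 0.14 for Sox9 and -0.11 for Zbtb20. Turned to knockout over control, each of these has the same sign as the TMM-scaled ratio. No label names the test behind these values, and a p-value from 1 library a genotype would compare libraries, not genotypes.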

How the data were processed

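RNA sequencing counts of 2 libraries, 1 per genotype, were taken from the authors' deposited table. Per the file headers it holds raw read counts per gene. It also holds the authors' CPM, the fold ratio of control to knockout CPM, its log2 and p-values. Tools named without roles, per the submitters' processing notes, are HTSeq 0.6.0, TopHat2 2.0.12 and Bowtie2 2.2.3, with the build mm9. Gene positions were identical to GENCODE M21 models on GRCm38 for 78.8% of genes and overlapped the same gene for 99.3%, so coordinates are given as GRCm38. Symbols matched 19616 identifiers.

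Counts were scaled by TMM in edgeR 4.0.16 (R 4.3.3) over all genes, and log2 ratios of knockout to control used a prior of 0.5 read. Each ratio has a 95% Clopper-Pearson interval taken from how its reads divide between the libraries; others are conditional intervals of the odds ratio for pairs, or Poisson intervals for levels. No p-value was computed. The control library held 8474545 reads and the knockout library 9028523. Lengths and coding sequences came from GENCODE M21. Python 3.11.15, scipy 1.17.1, pandas 2.3.3 and matplotlib 3.10.9 were used, and the calculation was tested on simulated counts.

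Named genes were the 6 genes, H2afz and H2afv, up to 4 genes furthest from 0 in each gliogenic list, neighbours within 500 kb that overlap or stand apart, and the 2 nearest list genes, of which 1 is not reported here. Single marker genes (Wnt8b, Dbi, Sox2, Clu, Apoe, Gja1, Mlc1, Slc1a2, Aldh1l1, Mrc1), genes at 0 reads and the low-count astrocyte and target genes were named after their values were seen. The genes and lists were chosen with earlier results of these data known. Alternatives were library totals, DESeq2 1.42.0 size factors, upper quartile, radial glia reads, a prior of 5 reads and read minimums of 1 and 100. Counts beyond counting error under these settings, of the set and of lists, and lengths from the longest transcript, were added after the data were seen.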

Additional observations from a re-analysis of the deposited data

How the results depend on the processing

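The 4 NFI genes were lower and Zbtb20 higher under each of the 5 scalings, with intervals that excluded a ratio of 1. Log2 ratios ranged from -0.28 to -0.19 for Nfia, -0.16 to -0.065 for Nfib, -0.40 to -0.30 for Nfic, -0.27 to -0.18 for Nfix and 0.11 to 0.21 for Zbtb20. Sox9 ranged from -0.14 to -0.052, and scaling by library total put it beyond counting error, giving 5 genes lower in place of 4. Scaling by radial glia reads moved Nfib to -0.065 and Nfix to -0.18, outside their intervals under TMM, which follows from the common shift of 0.056 that this scaling makes. No setting put any of the 6 genes 1.5-fold apart. The split of genes beyond counting error depended on scaling: 57.3% were higher with TMM, 42.0% with library totals, 66.5% with DESeq2 size factors and 76.9% with radial glia reads (76.1%, 56.0%, 84.7% and 92.0% among genes with at least 1000 reads). Medians of the gliogenic lists kept their sign under all settings run but not their size: from -0.10 (library total) to -0.0098 (radial glia reads) for promoting factors, -0.11 to -0.023 for reported targets and 0.037 to 0.13 for restraining factors. The diencephalon median of 1.92 ranged down to 0.69 at a minimum of 100 reads, and the cartilage median of 0.15 was -0.057 at a minimum of 1 read. The choroid plexus median was -4.91, and -3.53 with a gene at 0 reads set to a floor of 3 reads. No paired analysis was possible because each genotype has 1 library, and no library could be left out for the same reason. Variation between animals was not measured, and differences of the size seen here can be compared only with counting error.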
